A study of Homo sapiens with 24 samples.

Results

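The 4 human 2'-5'-oligoadenylate synthetase genes OAS1, OAS2, OAS3 and OASL were followed through interferon beta treatment, with and without depletion of BOP1, in the human lung adenocarcinoma line A549. They were chosen by name, with earlier results of these data known. They are 4 of the 60609 gene rows of the deposited table and 4 of the 16062 genes tested. Transfection lasted 48 h, with a pool of BOP1 siRNAs (siBOP1) or with the control, an siRNA directed at firefly luciferase (siFLuc), a gene these cells lack. Interferon beta (IFN, 1000 U/mL) or mock treatment followed, and cells were harvested 8 h or 12 h later. The 8 groups (siFLuc or siBOP1, mock or IFN, 8 h or 12 h) had 3 libraries each, so 24 in all. All cells, the controls included, had been transfected. BOP1, the siRNA target, acts in maturation of the large ribosomal subunit, and the series concerns ribosome biogenesis during an interferon response.

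OAS enzymes bind double-stranded RNA, a sign of viral infection, and then join ATP molecules into 2'-5'-linked oligoadenylates. These short chains switch on a latent ribonuclease that cuts viral and cellular RNA. OAS1 has a single synthetase unit, OAS2 has a pair of them, and OAS3 has 3 in tandem, of which the last is active and the others help it bind long double-stranded RNA. OASL has lost synthetase activity and carries ubiquitin-like domains, through which it supports signalling by the RNA sensor RIG-I. The genes are textbook interferon-stimulated genes: interferon beta binds the receptor IFNAR1/IFNAR2, the kinases JAK1 and TYK2 pass the signal to STAT2, and STAT2 joins IRF9 in the complex ISGF3, which binds interferon-stimulated response elements near the genes it activates.

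OAS1, OAS3 and OAS2 lie in this order on the plus strand of chromosome 12 in the GENCODE 29 annotation of GRCh38. OAS1 (ENSG00000089127) spans chr12:112906777-112933222, OAS3 (ENSG00000111331) spans chr12:112938352-112973249 and OAS2 (ENSG00000111335) spans chr12:112978395-113011723. The gaps are 5129 bases between OAS1 and OAS3 and 5145 bases between OAS3 and OAS2, and the cluster covers 104.9 kb. OASL (ENSG00000135114) is 8.01 Mb further on, on the minus strand, at chr12:121019111-121039242. The longest annotated coding transcripts grow with the number of synthetase units, from 2416 bases for OAS1 to 4734 for OAS2 and 6719 for OAS3, and that of OASL has 3266 bases. An antisense gene, AC004551.1, overlaps OAS1, OAS2 and OAS3 and is listed at 0 in every library. The values are per gene and do not separate transcript isoforms, and how reads shared between these paralogs were assigned is not given in the sources used here.

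The RefSeq promoter table (GRCh38.p14) held 2 of the 4 members, OAS1 and OAS3, the neighbours whose transcripts were both already present in mock cells. Their plus-strand sequences are shown from 250 bases before to 10 bases after the RefSeq start, because both genes rose with IFN and each carries a repeat of GAAA, the core of an interferon-stimulated response element. Capitals mark each match to GAAANNGAAA or GAAANGAAA. The windows are chr12:112906712-112906971 for OAS1 and chr12:112938224-112938483 for OAS3.
OAS1: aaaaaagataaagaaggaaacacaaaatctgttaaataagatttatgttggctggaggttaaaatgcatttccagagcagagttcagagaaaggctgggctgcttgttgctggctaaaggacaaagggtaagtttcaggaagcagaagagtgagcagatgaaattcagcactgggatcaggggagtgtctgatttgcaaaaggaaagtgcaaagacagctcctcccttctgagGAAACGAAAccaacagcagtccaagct
OAS3: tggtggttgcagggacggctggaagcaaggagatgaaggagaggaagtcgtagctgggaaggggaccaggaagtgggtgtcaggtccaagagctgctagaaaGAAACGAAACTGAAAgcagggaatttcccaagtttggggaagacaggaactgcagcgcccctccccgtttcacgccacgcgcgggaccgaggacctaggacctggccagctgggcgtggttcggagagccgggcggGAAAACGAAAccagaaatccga

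Both strands were searched over the table's full window, which reaches 50 bases past the start. The OAS1 window held no GAAANNGAAA and 1 GAAANGAAA match, GAAACGAAA, at -17 to -9 from the start. The OAS3 window held 2 GAAANNGAAA matches, GAAACTGAAA at -143 to -134 and GAAAACGAAA at -12 to -3. It also held GAAACGAAA at -148 to -140, which overlaps the first of these. The form with 1 base between the repeats was added after these promoters had been read. GAAANNGAAA was in 3.65% of all 27305 promoters of this length and in 18.2% of the 517 that belong to genes higher in all 4 IFN comparisons described below, against 2.08% of the other tested genes. GAAANGAAA was in 3.22%, 10.1% and 2.24% of the same 3 sets. The longest run of letters the OAS1 and OAS3 windows share is AAACGAAACCA, 11 bases, at -16 to -6 in OAS1 and at -10 to 1 in OAS3. It was in 4 of the 27305 promoters, of which 2 are OAS1 and OAS3 themselves. The starts in this table lie 185 bases (OAS1) and 122 bases (OAS3) inside the GENCODE 29 gene, so the windows are upstream of a RefSeq transcript and not of every annotated one. A match describes these letters and was not tested as a binding site.

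Levels are TPM values, transcript abundances that sum to the same total in each library. The unit corrects for transcript length, so levels of different genes can be compared within a library. The libraries held 13844 to 14509 genes at 1 TPM or more, and mitochondrial transcripts took 6.86% to 15.9% of the total. Sequencing depth is unknown, since TPM does not keep it. BOP1 was at 32.4 TPM or more in every siFLuc library and at 19.5 TPM or less in every siBOP1 library. Of the 3 libraries of each group, 2 are numbered 1 and 2 as in the labels, and the other is numbered 4 in the table while the labels number up to 3; these are called the libraries numbered 4. Epithelial markers were present (KRT8 2086 to 3803 TPM in all libraries, EPCAM 1.92 to 5.48), CD3E was listed at 0, and PTPRC reached at most 0.021 TPM. The other leukocyte markers, CD14 (1.81 to 5.26 TPM) and ITGAM (0.311 to 2.32), were detected, the summed level of the 4 being 2.39 to 7.08 TPM in mock and 3.40 to 5.38 in IFN libraries. Of 4 fibroblast markers COL3A1 and PDGFRB stayed under 1 TPM, while COL1A1 was at 5.37 to 19.3 and THY1 at 0.694 to 3.69, and all 3 endothelial markers stayed under 1 TPM. In bulk RNA, more responding cells and more RNA per cell cannot be told apart.

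OAS1 was the most abundant member under IFN in every library. In siFLuc mock cells it was at 24.7, 27.5 and 39.0 TPM at 8 h and at 25.2, 27.6 and 30.6 TPM at 12 h (libraries 1, 2 and 4 in this order here and below). With IFN these became 985, 923 and 837 TPM at 8 h and 1009, 1009 and 729 TPM at 12 h. Every IFN library lay far above every mock library, and under IFN the libraries numbered 4 were the lowest. In siBOP1 mock cells OAS1 was at 20.03, 19.3 and 30.4 TPM at 8 h and at 19.6, 18.5 and 25.05 TPM at 12 h. With IFN, siBOP1 cells had 1016, 1044 and 900.1 TPM at 8 h and 1003, 1031 and 819 TPM at 12 h. Under IFN the siFLuc means were 915 ± 74.4 TPM at 8 h and 916 ± 162 at 12 h, and the siBOP1 means were 986 ± 76.1 and 951 ± 115 (SD, n = 3), and the ranges of these 4 groups overlapped.

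OAS3, the sensor of long double-stranded RNA, started near the level of OAS1 and ended below it. In siFLuc mock cells it was at 18.9, 19.2 and 24.2 TPM at 8 h and at 26.6, 26.0 and 23.1 TPM at 12 h. With IFN it was at 589, 490.5 and 456 TPM at 8 h and at 598, 599.7 and 588 TPM at 12 h. No mock library came near an IFN library, and the 8 h IFN libraries were spread more widely than those at 12 h. In siBOP1 mock cells OAS3 was at 20.8, 18.2 and 23.8 TPM at 8 h and at 19.8, 23.3 and 21.7 TPM at 12 h. With IFN, siBOP1 cells had 612, 584 and 469 TPM at 8 h and 533, 631 and 581 TPM at 12 h. The 4 IFN groups overlapped in the order of their means, which ran from 512 ± 69.1 (siFLuc, 8 h) to 595 ± 6.45 (siFLuc, 12 h) TPM (SD, n = 3).

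OAS2, the synthetase with a pair of units, was the member closest to silent in mock cells. It was below 1 TPM in all 12 mock libraries, with a lowest value of 0.032, a median of 0.147 and a highest value of 0.769 TPM. With IFN, siFLuc cells had 298, 339 and 298 TPM at 8 h and 387, 398 and 398 TPM at 12 h. The siBOP1 cells had 358, 363 and 342 TPM at 8 h and 319, 341 and 375 TPM at 12 h. The siFLuc libraries at 12 h were above those of each of the other 3 IFN groups with no overlap, and the other 3 overlapped their neighbours in the order of means. Of all genes, 16.7% were separated in this direction from siFLuc at 8 h and 5.61% from siBOP1 at 12 h. Neither of these OAS2 differences was called (limma adjusted p 0.217 and 0.826). The share of all genes against siBOP1 at 8 h was not computed. Their means were 395 ± 6.32 (siFLuc, 12 h), 354 ± 11.1 (siBOP1, 8 h), 345 ± 28.2 (siBOP1, 12 h) and 312 ± 23.5 (siFLuc, 8 h) TPM (SD, n = 3).

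OASL, the member without synthetase activity, was also near the lower end in mock cells, between 0.89 and 2.26 TPM with a median of 1.37 over 12 libraries. With IFN, siFLuc cells had 315, 308 and 280 TPM at 8 h and 328, 303 and 274 TPM at 12 h. The siBOP1 cells had 299, 291 and 274 TPM at 8 h and 288, 281 and 248 TPM at 12 h. Within each IFN group the library numbered 4 was the lowest and library 1 the highest. The 4 IFN groups overlapped in the order of their means, from 302 ± 27.1 (siFLuc, 12 h) down to 273 ± 21.3 (siBOP1, 12 h) TPM (SD, n = 3). In mock cells 1 pair of neighbours in that order was apart, siBOP1 at 12 h (1.38 TPM or more) above siBOP1 at 8 h (1.35 or less), a separation that held with 12 h higher for 11.7% of all genes.

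**Figure D1:**
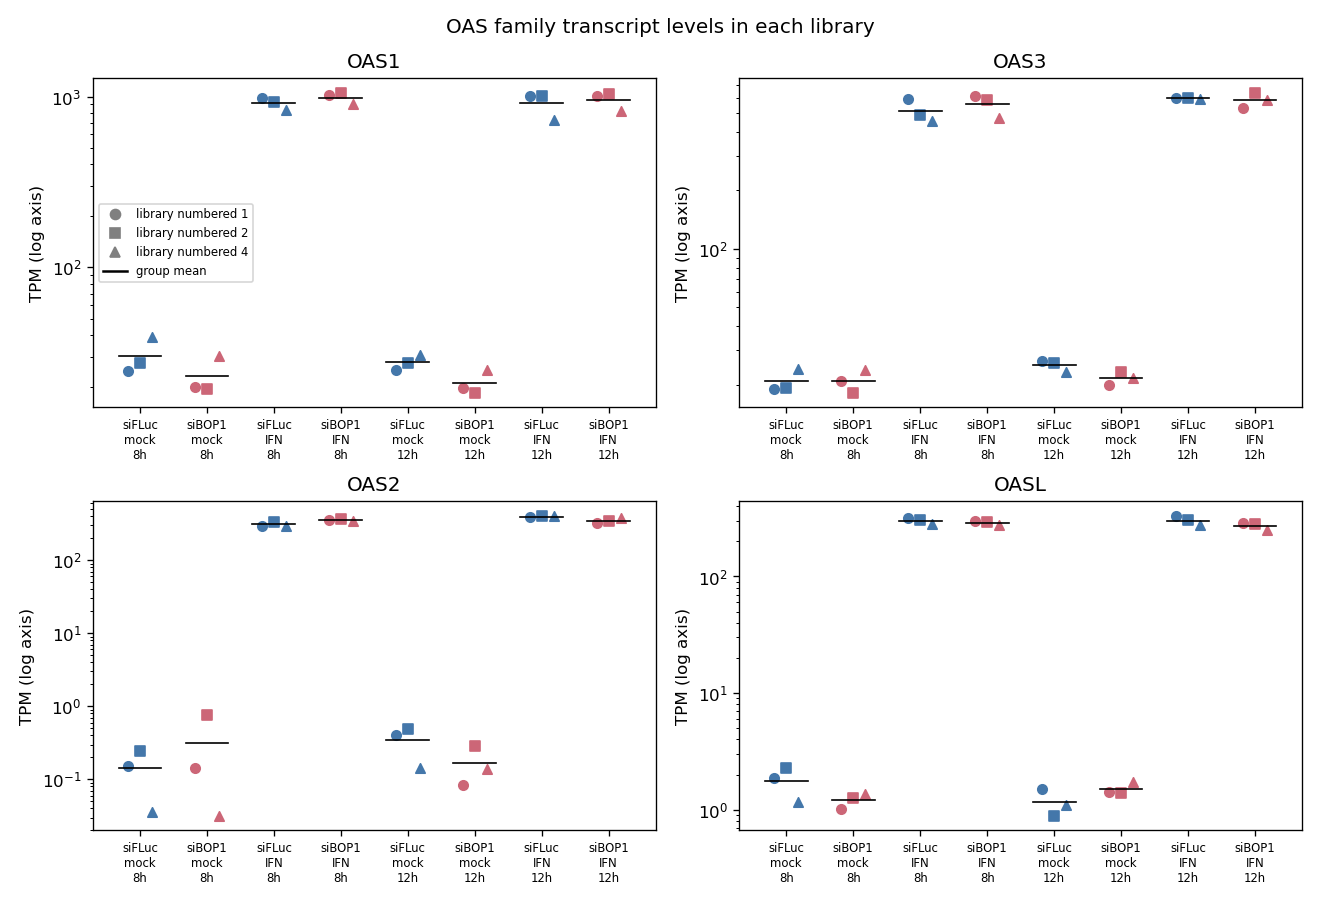
TPM of each member (log axis) in every library by siRNA, treatment and time; symbols give the library number, blue is siFLuc, red is siBOP1, and black lines are group means of 3 libraries. All 12 IFN libraries of each gene sit above all 12 mock libraries, and in OAS1 the triangles (libraries numbered 4) are the highest in each mock group and the lowest in each IFN group.

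All 4 genes rose with IFN under both siRNAs at both times. On the log2(TPM + 1) scale, which understates changes of low genes, the rise in siFLuc cells at 8 h was 8.10 (SE 0.15) for OAS2, 6.79 (SE 0.13) for OASL, 4.89 (SE 0.18) for OAS1 and 4.56 (SE 0.12) for OAS3. By limma over all tested genes the Benjamini-Hochberg adjusted p was 1.88e-19 for OAS2, 3.28e-19 for OASL, 5.03e-15 for OAS1 and 4.32e-17 for OAS3, and every IFN library exceeded every mock library of its pair of groups. In that comparison 5.77% of all genes were called higher (adjusted p under 0.05), and the groups did not overlap, with IFN higher, for 9.92%. The order OAS2, OASL, OAS1, OAS3 was the same in the other 3 comparisons. At 12 h in siFLuc cells the rises were 8.21, 7.13, 4.98 and 4.51, beside 7.06% of all genes called higher. With siBOP1 the 8 h rises were 8.12, 7.03, 5.37 and 4.66 (5.99% of all genes called higher), and the 12 h rises were 8.21, 6.77, 5.44 and 4.69 (7.17%). The groups of these 3 comparisons did not overlap for any member, which held for 11%, 10.1% and 12.4% of all genes with IFN higher. The adjusted p of the 4 genes in these 3 comparisons (limma) lay between 1.22e-19 and 3.59e-15. Ranked by rise among the 16062 genes, OAS2 was between 3rd and 5th, OASL 9th or 10th, OAS1 between 25th and 34th, and OAS3 between 39th and 43rd.

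The members lowest in mock cells, OAS2 and OASL, had the larger rises. As ratios of mean TPM, IFN over mock, OAS3 rose 24.6-fold (8 h) and 23.6-fold (12 h) with siFLuc and 26.5-fold and 26.9-fold with siBOP1. For OAS1 the same ratios were 30.08 and 32.9 with siFLuc and 42.4 and 45.2 with siBOP1. For OASL they were 170 and 258 with siFLuc and 238 and 180.3 with siBOP1. For OAS2, whose mock means were 0.144 to 0.344 TPM, the ratios of 1126 to 2164 rest on values close to 0, and a pseudocount of 0.1 in place of 1 raised its log2 change to between 9.89 and 10.42.

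IFN changed which members made up the OAS transcript pool. The summed TPM of the 4 genes went from 39.6 to 64.4 in mock libraries to 1871 to 2322 in IFN libraries, which was 0.187% to 0.232% of all transcripts. In mock libraries OAS1 and OAS3 were nearly the whole pool, with medians of 50.9% and 45.3% over 12 libraries, against 2.99% for OASL and 0.337% for OAS2. In IFN libraries OAS1 was still first, with a median of 44.8%, followed by OAS3 with 25.8%, OAS2 with 16.2% and OASL with 13.6%. The OAS2 and OASL shares did not overlap between mock and IFN libraries: OAS2 took at most 1.94% in mock and at least 13.6% under IFN, and OASL at most 4.59% and at least 12.3%. The OAS3 share was 37.5% to 53.6% in mock and 23.6% to 29.6% under IFN, also without overlap. The OAS1 share overlapped, at 42.5% to 60.6% in mock and 36.7% to 46.8% under IFN. The ratio of OAS1 to OAS3 TPM was 0.793 to 1.61 in mock libraries and 1.24 to 1.92 in IFN libraries.

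**Figure D2:**
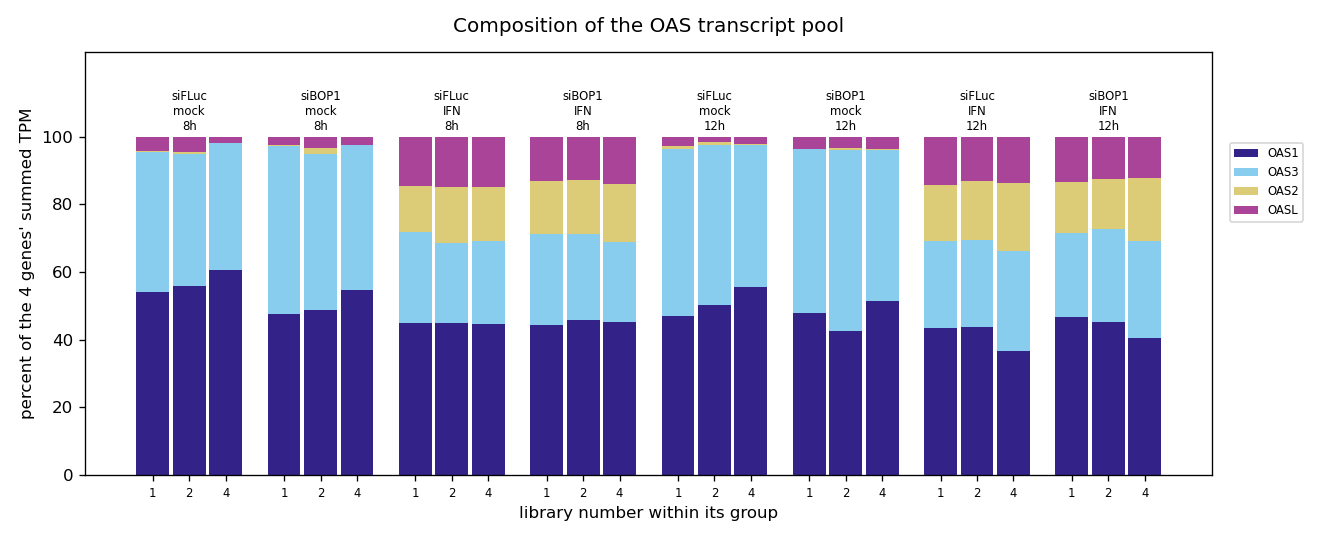
Each bar is 1 library and shows the percent of the summed TPM of the 4 genes that each gene takes (left axis, from 0), grouped by siRNA, treatment and time and labelled with the library number. Mock bars are almost all OAS1 and OAS3, and IFN bars hold 13.6% to 20.01% OAS2 and 12.3% to 15.0% OASL.

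The genes next to the members changed much less with IFN, and some fell. The nearest tested genes on each side of the OAS1-OAS3-OAS2 cluster and of OASL changed by -0.81 to 0.90 on the log2(TPM + 1) scale over 10 genes and 4 comparisons, and 4 of these 40 values were called higher and 12 lower by limma. Of all genes, 5.07% and 6.43% were called lower with siFLuc (8 h and 12 h) and 9.11% and 7.58% with siBOP1. RPH3A, a synaptic vesicle protein gene next to OAS1 on the side away from OAS3, rose in all 4 comparisons, by 0.87 and 0.90 with siFLuc and by 0.87 and 0.77 with siBOP1 (limma adjusted p 0.0084, 0.00557, 0.00712 and 0.0171). Its level stayed between 0.366 and 3.15 TPM over all libraries. PTPN11, which encodes the phosphatase SHP2, fell by 0.47 to 0.61 in the 4 comparisons, and RPL6, a large ribosomal subunit protein gene, fell by 0.40 to 0.81. On the far side of OAS2, RITA1 was called lower in 3 comparisons (-0.42, -0.54 and -0.45), and DDX54 and TPCN1 in none. Around OASL 1 value of the 4 genes described was called: ANAPC5 fell by 0.37 in siFLuc cells at 12 h (limma adjusted p 0.0388).

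**Figure D3:**
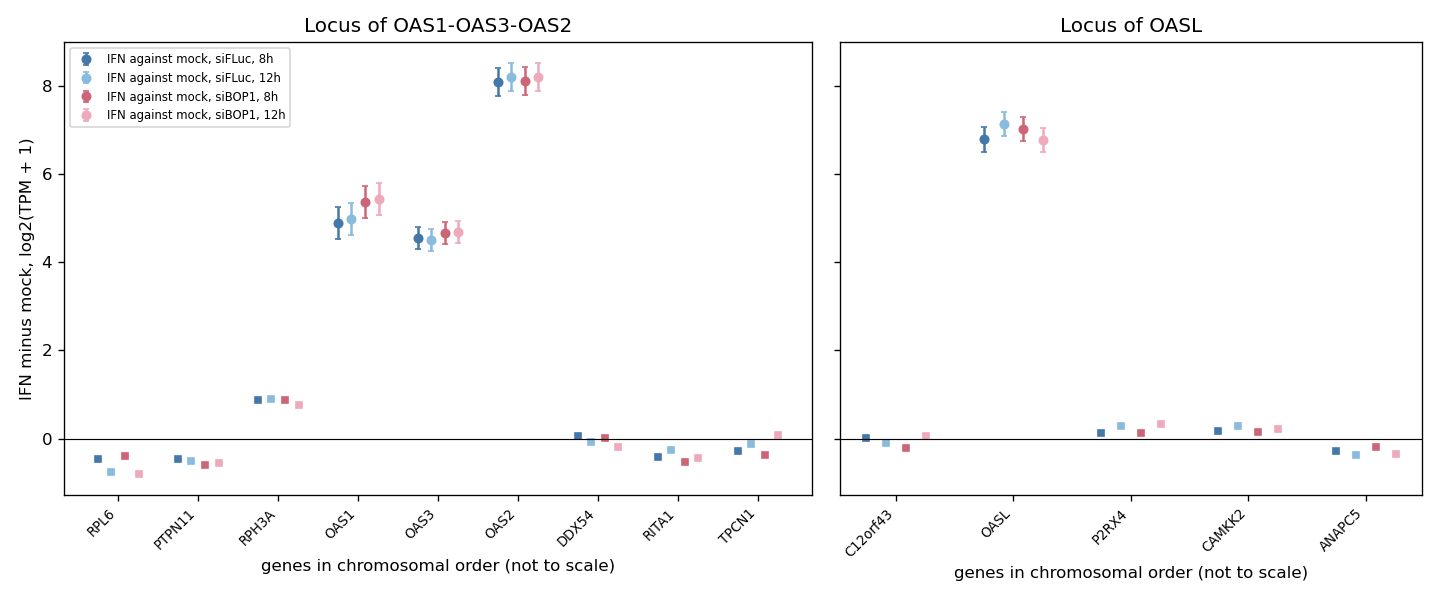
Change with IFN on the log2(TPM + 1) scale for the members (circles, bars are limma 95% intervals) and for the nearest tested genes described on each side (squares, no interval drawn), in chromosomal order and not to scale; colours give siRNA and time. The members lie between 4.51 and 8.21, and the neighbours between -0.81 and 0.90.

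No difference of the induced levels between siBOP1 and siFLuc passed the test. Under IFN, averaged over both times, siBOP1 against siFLuc was 0.09 for OAS1 (95% interval -0.17 to 0.34), 0.00 for OAS2 (-0.23 to 0.22), 0.04 for OAS3 (-0.14 to 0.22) and -0.10 for OASL (-0.30 to 0.09) on the log2(TPM + 1) scale. None was called by limma, with adjusted p between 0.629 and 0.992, while 6.11% of all genes were called in either direction in this comparison. Over 6 comparisons (mock, IFN, and each time alone or averaged), 0 of 24 tests of the members passed the threshold with limma. The share of all genes called in either direction was 2.16% and 1.6% in mock cells at 8 h and 12 h, 2% and 0.66% under IFN, and 7.56% for the averaged mock comparison. At an unadjusted p under 0.05 there were 4: OAS1 in mock cells at 8 h, at 12 h and averaged, and OASL in mock cells at 8 h. Of all 16062 genes, 2076, 2051 and 3222 were at that level in mock cells at 8 h, at 12 h and averaged. Under IFN these counts were 2191, 1444 and 3027. The member tests took no account of the library number. With the number as a block within each time 1 member test passed, OAS1 in mock cells averaged (limma adjusted p 0.0458). That fit called 1742 of all genes higher and 1117 lower in the averaged mock comparison.

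OASL under IFN was lower with siBOP1 in all 6 same-numbered pairs of libraries, by small amounts of -0.18 to -0.03. The averaged difference was not called (limma adjusted p 0.629), and the share of all genes with 6 such pairs was not computed. In mock cells OASL was lower with siBOP1 at 8 h (-0.31, SE 0.13, limma adjusted p 0.31) and higher at 12 h (0.22, SE 0.13, adjusted p 0.531). At 8 h the OASL values of both siRNAs overlapped, since the siFLuc library numbered 4 (1.16 TPM) lay among the siBOP1 libraries (1.02, 1.26 and 1.35 TPM). OAS2 under IFN was higher with siBOP1 at 8 h (0.19, SE 0.15) and lower at 12 h (-0.20, SE 0.15), with no overlap between the siRNAs in either case, and neither passed the threshold (limma adjusted p 0.668 and 0.826). In the 8 h and 12 h comparisons the groups did not overlap, with siBOP1 higher at 8 h, for 9.84% of all genes, and with siBOP1 lower at 12 h for 5.61%. OAS3 differed by -0.21 to 0.12 over the 4 comparisons of single times.

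OAS1 in mock cells was the member on which the BOP1 siRNA came closest to a call. All 6 same-numbered pairs were lower with siBOP1, by 0.28 to 0.56, and the share of all genes with 6 such pairs was not computed. At 8 h the groups overlapped because the siBOP1 library numbered 4 (30.4 TPM) exceeded the siFLuc libraries 1 and 2 (24.7 and 27.5 TPM). At 12 h they did not overlap, which held with siBOP1 lower for 7.55% of all genes, but the gap was only from 25.05 to 25.2 TPM. The averaged difference was -0.39 (SE 0.12, 95% interval -0.64 to -0.13), with a limma adjusted p of 0.0636, beside 2.51% of all genes called lower. With the library number as a block within each time it was -0.39 with an adjusted p of 0.0458 (limma), beside 1117 of 16062 genes called lower. With the libraries numbered 1 and 2 alone it was -0.42 with a limma adjusted p of 0.000454, beside 492 genes called lower. Over 23 alternatives the adjusted p ran from 2.62e-05 to 0.184 and was under 0.05 in 7, while the difference ran from -0.49 to -0.29. The lowest adjusted p came with a term chosen because of OAS1 and described below. Under IFN, 5 of 6 pairs were higher with siBOP1, by 0.18 at most. The rise of OAS1 with IFN was larger with siBOP1 by 0.47 (SE 0.18, 95% interval 0.10 to 0.84, averaged over both times), with an unadjusted p of 0.0143 and a limma adjusted p of 1. No gene of 16062 (0%) was called by limma in this test of the difference between siRNAs, averaged or at either time, beside 396 in the averaged test at an unadjusted p under 0.05. The same test gave 0.01 for OAS2 (-0.30 to 0.33), 0.14 for OAS3 (-0.11 to 0.40) and -0.06 for OASL (-0.34 to 0.21).

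**Figure D4:**
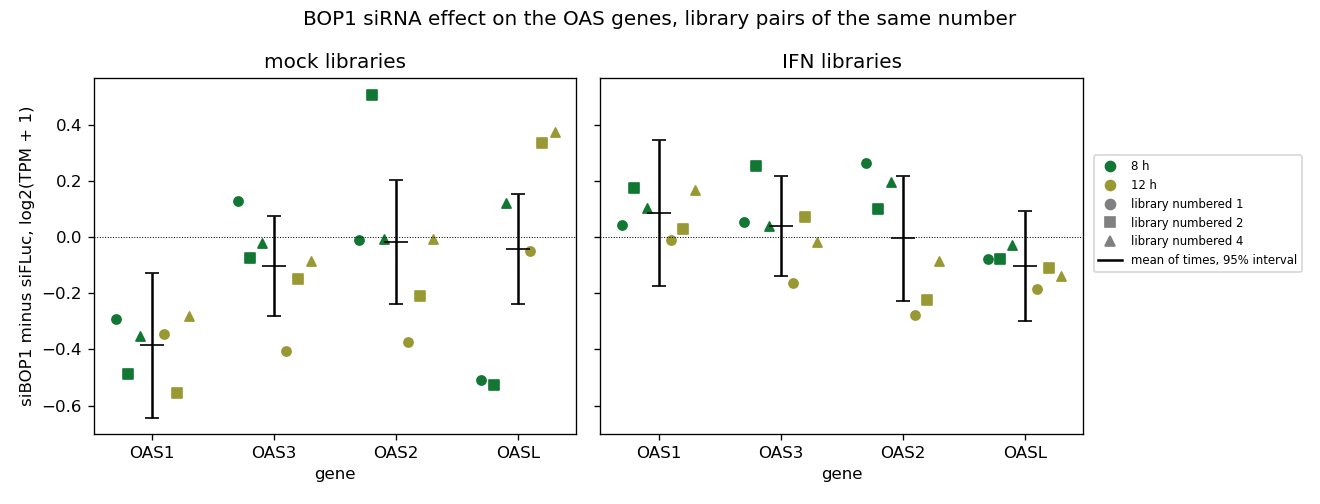
Difference siBOP1 minus siFLuc on the log2(TPM + 1) scale for each pair of libraries of the same number (symbols; dark green 8 h, olive 12 h), in mock (left) and IFN (right) libraries; black bars are limma estimates averaged over both times with 95% intervals. The 6 OAS1 pairs in mock cells lie between -0.56 and -0.28, and the intervals of all 4 genes under IFN include 0.

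No change of a member from 8 h to 12 h passed the test. Under IFN, 12 h against 8 h in siFLuc cells was 0.34 (SE 0.15) for OAS2, 0.23 (SE 0.12) for OAS3, 0.00 (SE 0.13) for OASL and -0.01 (SE 0.18) for OAS1. None passed the threshold (limma adjusted p 0.217, 0.317, 1 and 0.982), beside 3.53% of all genes called in either direction. In siBOP1 cells the same differences were -0.04, 0.07, -0.08 and -0.06, beside 2.96%. In mock cells no member was called either, beside 0.131% (siFLuc) and 0.23% (siBOP1) of all genes. The OAS2 difference of 0.34 came with no overlap between 8 h (298 to 339 TPM) and 12 h (387 to 398 TPM), which held with 12 h higher for 16.7% of all genes. A test of whether the OAS2 time change under IFN differed between the siRNAs, added after these values were seen, gave -0.38 (SE 0.21) with a limma adjusted p of 1, and 0% of all genes were called. The interaction of time with IFN was not called for any member (limma), beside 0.00623% of all genes with siFLuc and 0% with siBOP1.

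The libraries numbered 4 stood apart for OAS1. In each of the 4 mock groups that library had the highest OAS1 value, by 0.21 to 0.60 on the log2(TPM + 1) scale above the mean of libraries 1 and 2. In each of the 4 IFN groups it had the lowest, by 0.19 to 0.47 below. As a result the rise with IFN was 4.39 to 4.98 in the 4 pairs numbered 4 and 5.02 to 5.73 in the 8 pairs numbered 1 and 2. The 2 sets did not overlap, a separation whose share of all genes was not computed. A limma term for this difference, added after the values were seen and fitted to all 16062 genes with the library number as a block within each time, gave -0.73 (SE 0.06) for OAS1 with an adjusted p of 0.000112. It was the smallest adjusted p of the 9 genes called (0.056% of all genes). Among the others, named after their values were seen, TAP1, CD99P1, WARS1 and RNF19B were lower, and RPL23, ODC1 and TNFRSF10D were higher. OAS3 (-0.26), OASL (-0.11) and OAS2 (0.27) were not called, with limma adjusted p of 0.542, 0.864 and 0.511. At 8 h the OAS3 rises numbered 4 (4.18 with siFLuc, 4.24 with siBOP1) were also below those numbered 1 and 2 (4.60 to 4.93). At 12 h the OAS3 rises were alike or reversed (4.61 against 4.44 and 4.48 with siFLuc). The OAS2 rise was largest in the pair numbered 4 for each siRNA and time, with mock values under 1 TPM. The libraries numbered 4 also had the lowest mitochondrial share in 8 of 8 groups, at 6.86% to 14.2% of all TPM against 12.8% to 15.9% in those numbered 1 and 2. The part of this difference in the OAS1 result was not tested, and what separates the libraries numbered 4 is not given in the sources used here. The fit of the limma term treats the 4 pairs numbered 4 as independent, although they carry the same library number. Its SE and adjusted p do not measure the spread between differently numbered sets of libraries.

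With that term in the fit the OAS1 differences have smaller errors. Their size could not change, because every group holds 1 library of each number. The mock difference siBOP1 against siFLuc was -0.39 (SE 0.04) with a limma adjusted p of 2.62e-05, beside 7.18% of all genes called lower, and it was also called at 8 h and at 12 h alone (adjusted p 0.00138 and 0.00134, beside 2.67% and 3.49%). The IFN rise of OAS1 in siBOP1 cells exceeded that in siFLuc cells by 0.47 (SE 0.06) with a limma adjusted p of 0.016, against 0.016 to 1 over its 35 alternatives, and OAS1 was the 1 gene of 16062 called, which is 0.00623%. In all 6 pairs of the same number and time the rise was larger with siBOP1: 5.60, 5.68 and 4.84 against 5.26, 5.02 and 4.39 at 8 h, and 5.61, 5.73 and 4.98 against 5.27, 5.14 and 4.53 at 12 h. The share of all genes with 6 such pairs was not computed. The term was chosen because of OAS1, so the smaller errors and these p-values are not independent of that choice. They add no support to the main fit, which called none of these differences.

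**Figure D5:**
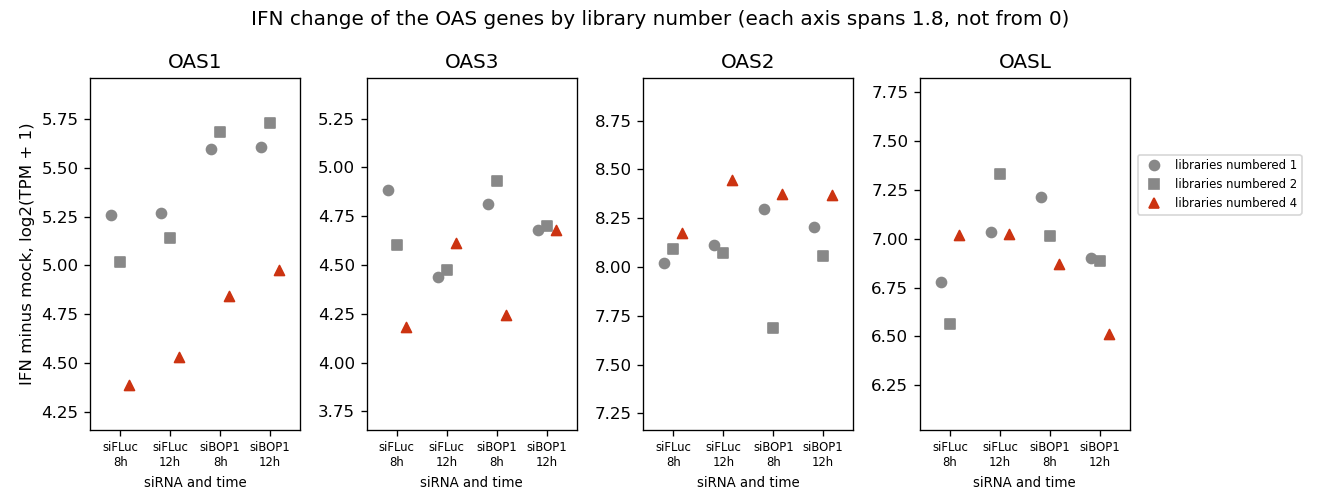
Rise with IFN on the log2(TPM + 1) scale for each same-numbered pair of an IFN and a mock library, by siRNA and time; red triangles are the libraries numbered 4, grey symbols those numbered 1 and 2, and each axis spans 1.8 and does not start at 0. In OAS1 all 4 triangles (4.39 to 4.98) lie below all 8 grey symbols (5.02 to 5.73), and in the other 3 genes they overlap over the whole panel. In OAS3 the triangles at 8 h lie below the grey symbols, and in OAS2 each triangle is the highest of its siRNA and time. The share of all genes with such a separation was not computed.

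The other genes of the pathway were read from lists chosen by function, with earlier results of these data known. Of 13 genes listed for double-stranded RNA sensing, among which CGAS and STING1 act in sensing of DNA, 10 rose in each of the 4 IFN comparisons, as did 718 of all 16062 genes (4.47%). The list medians were 2.07 and 2.04 (siFLuc, 8 h and 12 h) and 2.01 and 1.83 (siBOP1), beside medians over all tested genes of -0.09, -0.06, -0.14 and -0.08. The helicase genes of viral RNA sensing rose by 5.96 and 5.51 (IFIH1), 5.66 and 5.20 (RIGI, the gene of RIG-I) and 3.50 and 3.49 (DHX58) in siFLuc cells. The endosomal receptor gene TLR3 rose by 4.72 and 4.02, and the kinase gene EIF2AK2 by 2.78 and 2.56. ADAR, which edits double-stranded RNA, rose by 2.07 and 2.04, STAU1, a double-stranded RNA binding protein gene, by 0.44 and 0.54, and the DNA sensing gene STING1 by 0.93 and 1.53. ZBP1 and ZC3HAV1 completed the 10. PRKRA was called lower in siBOP1 cells at 8 h (-0.45, limma adjusted p 0.00851), beside 9.11% of all genes. MAVS and CGAS were called in none of the IFN comparisons. In mock cells RIGI was lower with siBOP1, by -0.51 over both times (limma adjusted p 0.00699). It was the 1 gene of this list of 13 called in an averaged siRNA comparison. Of all genes, 7.56% (mock) and 6.11% (IFN) were called there in either direction, so 1 of 13 is near the share of all genes.

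Of 13 genes of signalling from the receptor to interferon-stimulated genes, 7 rose in each of the first 3 comparisons and 9 in siBOP1 cells at 12 h, beside 5.77%, 7.06%, 5.99% and 7.17% of all genes called higher. The list medians were 2.33, 1.91, 2.20 and 1.70. STAT2 and IRF9, parts of ISGF3, rose in every comparison, by 4.21 and 3.94 (STAT2) and 2.95 and 2.77 (IRF9) in siFLuc cells. IRF7, IRF1 and IRF2, transcription factors, and the feedback inhibitors USP18 and SOCS1 also rose in all 4. The kinase genes JAK1 and TYK2 were called in none. IFNAR1, a receptor subunit, fell at 8 h with both siRNAs (-0.59 and -0.41, limma adjusted p 0.00357 and 0.0363), beside 5.07% and 9.11% of all genes called lower. Under IFN, averaged over both times, it was higher with siBOP1 (0.35, limma adjusted p 0.0252), beside 6.11% of all genes called in either direction. Of 3 genes that limit 2'-5'-oligoadenylates or their ribonuclease, AKAP7, whose product has a 2'-5' phosphodiesterase domain, rose by 0.87, 0.95, 0.83 and 0.68 (limma adjusted p 0.000439, 0.00013, 0.000575 and 0.00387), from a mock median of 3.81 TPM to 7.49 TPM under IFN. PDE12, which degrades oligoadenylates, and ABCE1, an inhibitor of the ribonuclease and a ribosome recycling factor, were called in none of the 4 IFN comparisons. PDE12 was higher with siBOP1 by 0.33 in mock and 0.30 in IFN libraries (limma adjusted p 0.0261 and 0.047, averaged over both times). Of all genes, 7.56% and 6.11% were called in either direction in these comparisons.

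Over all 24 libraries the genes whose log2(TPM + 1) values were most like those of a member were other genes that rose with IFN. The highest Pearson r was 0.9990 for OAS2 with XAF1, 0.9985 for OASL with MX2, 0.9983 for OAS3 with XAF1 and 0.9963 for OAS1 with HERC5. These values mainly reflect the step from 12 mock to 12 IFN libraries, which all such genes share. Within the 12 IFN libraries alone the members were less alike: r was 0.614 between OAS1 and OASL, 0.514 between OAS2 and OAS3, 0.347 between OAS1 and OAS3 and 0.176 between OAS3 and OASL. OAS2 had r of -0.124 with OAS1 and -0.072 with OASL. All correlations are descriptions over libraries that share groups and library numbers.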

How the data were processed

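Polyadenylated RNA of 24 A549 cell libraries was sequenced after a stranded mRNA library preparation, per the labels' protocols. The authors deposited 1 table of TPM values, and each column sums to 1000000. Aligner, quantification and annotation are not given in the sources used here, and depth is unknown. Replicate numbers of 16 columns are those of the labels, and 8 columns, numbered 4, entered as members of their group. Whether libraries of a group came from separate cultures is not given, so p-values measure the spread between these libraries, which may be technical.

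The test was limma 3.58.1 (R 4.3.3) on log2(TPM + 1) values (group means over 24 libraries, eBayes with trend), for genes at 1 TPM or more in at least 3 libraries. A gene was called at a Benjamini-Hochberg adjusted p under 0.05 over 16062 genes in each of 20 comparisons. Large known changes in simulated data with independent noise were recovered. That check did not cover small changes or deviations shared between libraries of the same number. Same-numbered libraries deviated together (r 0.115 to 0.508 over genes in the IFN and siRNA comparisons), so the number pairs them by the rule used. The main tests took no account of this pairing, and block fits were alternatives. Members and lists were chosen with earlier results of these data known. Named genes were the members, list genes called in all IFN or any siRNA comparison (with examples of the rest), the nearest genes on each side (up to 3) and the most correlated genes. Symbols came from an Ensembl table and positions from GENCODE 29, which may not be the build used. Some further genes of the pathway, the lists and the loci are not reported here, and list counts and medians leave them out.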

Additional observations from a re-analysis of the deposited data

Results flagged for a closer look

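The IFN change of OAS1 differed between the libraries numbered 4 and those numbered 1 and 2, by -0.728 on the log2(TPM + 1) scale (SE 0.06, limma adjusted p 0.000112). It was smaller in 4 of 4 pairs than in any of the other 8, and the share of all genes for which this held was not computed. The set of libraries was picked after their values were seen. The fit treats the 4 pairs as independent although they carry the same library number. Its SE and adjusted p do not measure the spread between differently numbered sets of libraries. Over 30 alternatives the difference ran from -0.77 to -0.58, with adjusted p from 6.33e-05 to 0.0363, all under 0.05. The largest adjusted p came with quantile normalization. These alternatives refit the same values that led to the choice of libraries, so they add no independent support. The groups of 3 libraries are too small for a search for single outlying libraries.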

How the results depend on the processing

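All 16 tests of the IFN rise of the 4 genes stayed past the threshold in every alternative run: another pseudocount, 2 other filters, median-of-ratios and quantile scaling, no trend, only the groups compared, both block fits, only columns numbered as in the labels, and each library left out. The count of 0 of 24 siRNA tests became 1 with quantile normalization, 1 with the block within time, 4 with only columns numbered as in the labels (OAS1 in mock cells at 8 h, 12 h and averaged, and OASL in mock cells at 8 h, -0.52, limma adjusted p 0.0448), 3 with the added number 4 by IFN term, and between 0 and 1 with 1 library left out (1 also without siFLuc IFN 12 h library 4). The averaged OAS1 mock difference was called without siFLuc mock 8 h library 1, siBOP1 mock 8 h library 4 or siBOP1 mock 12 h library 4 (-0.45, -0.48 and -0.45, limma adjusted p 0.0376, 0.0168 and 0.0441). Calls over all genes rose as well. For the averaged mock comparison the main fit (limma) called 403 of 16062 genes lower. This became 602 with quantile normalization, 1117 with the block within time, 492 with the labelled columns and 1153 with the number 4 by IFN term. With the labelled columns 145 genes were called lower in the 8 h mock comparison and 127 in that of 12 h. Such counts are not given here for fits with 1 library left out. The count of 0 siRNA by IFN tests became 1 with the number 4 by IFN term, which was chosen because of OAS1. The replicate block changed no other call, and time and time by IFN tests stayed at 0 in every alternative. The cause of these changes was not tested.

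Several small differences of uncalled members changed sign. For 12 h against 8 h under IFN, OAS1 in siBOP1 cells (-0.06) became 0.019 with the block within time, and OAS1 in siFLuc cells (-0.01) became 0.001 with quantile normalization, 0.065 with that block and 0.082 with the labelled columns alone. In the same comparison OAS2 in siBOP1 cells became 0.005 with quantile normalization, and OASL in siFLuc cells became -0.107 with median-of-ratios. OAS3 in siBOP1 cells (0.07) became -0.051, -0.025 and -0.044 with median-of-ratios, the block within time and the labelled columns. For siBOP1 against siFLuc, OAS2 under IFN became 0.011 with median-of-ratios, OAS3 under IFN became -0.020 with quantile normalization, and OAS3 in mock cells at 8 h became -0.030 and -0.021 with both scalings. For siRNA by IFN, OAS2 at 8 h became -0.226 with pseudocount 0.1 and -0.066 with the labelled columns, where OAS2 averaged became -0.013 and OASL averaged 0.076. Median-of-ratios moved the median of all genes by at most 0.136 (IFN, siBOP1, 8 h).

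With 1 library left out, the differences that changed sign, among those followed, ranged as follows. Signs were not followed, here or above, for time by IFN or for 12 h against 8 h in mock cells. For siRNA by time they were followed for OAS2 alone. For 12 h against 8 h under IFN, OAS1 ran from -0.122 to 0.047 (siBOP1) and -0.090 to 0.145 (siFLuc), OAS2 from -0.103 to 0.014 (siBOP1), OAS3 from -0.043 to 0.149 (siBOP1) and OASL from -0.060 to 0.069 (siFLuc). For siBOP1 against siFLuc under IFN, OAS1 at 12 h ran from -0.093 to 0.167, OAS2 averaged from -0.035 to 0.026 and OAS3 at 12 h from -0.096 to 0.025. In mock cells OAS2 ran from -0.071 to 0.318 at 8 h and -0.134 to 0.060 averaged, OAS3 at 8 h from -0.082 to 0.118 and OASL averaged from -0.126 to 0.022. For siRNA by IFN, OAS2 ran from -0.076 to 0.114 at 12 h, -0.131 to 0.258 at 8 h and -0.065 to 0.130 averaged, OAS3 at 8 h from -0.003 to 0.223 and OASL averaged from -0.125 to 0.023. TPM keeps no depth, so counting error cannot be given.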
